A study of Mus musculus with 8 samples.

Results

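The expression of 10 genes of excitation-contraction coupling was compared between muscle stem cells (MuSCs) of aged mice that were cultured with vehicle or with NAM/PN, that is, nicotinamide (NAM) given together with pyridoxine (PN). The genes were chosen by name among the 55487 Ensembl genes of the count table, with earlier results of these data known. They stand for the subunits and partners of the calcium release channel, the calcium pumps and the junctional proteins of the triad: Cacna1s, Cacng1, Stac3, Ryr1, Trdn, Casq2, Atp2a1, Atp2a2, Jph1 and Jph2. Of these, 9 passed the filter on low counts among 12060 tested genes, and Cacna1s did not.

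MuSCs were isolated by FACS from mice labelled Old, and the study describes its mice as wild-type C57BL/6JRj males. After isolation the cells were seeded in growth medium, which favors proliferation, and cultured for 3 days. The vehicle was 1% DMSO, and the labels give a final concentration of 1 mM for the combination, without separate values for NAM and PN. There were 8 mice in 4 pools of 2 mice, and each pool was split between vehicle and NAM/PN, which gave 4 libraries per condition. A library therefore averages 2 animals, and the vehicle and NAM/PN libraries that share a number share their mice. The design text calls the pools independent biological replicates, and p-values measure the spread between these pools.

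In striated muscle, depolarization of the transverse tubule is sensed by the L-type calcium channel, or dihydropyridine receptor, which opens the ryanodine receptor of the sarcoplasmic reticulum and releases the calcium that drives contraction. SERCA pumps return this calcium to the reticulum, where calsequestrin binds it, and junctophilins hold the tubule and the reticulum together in the triad. Most of these genes are expressed late in myogenesis, when myoblasts leave the cell cycle and form myotubes, whereas SERCA2 is also the housekeeping pump of the endoplasmic reticulum in most cell types.

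The libraries held 6472484 to 10163101 counts each. Detection was limited to 3 counts, which is 0.28 to 0.457 CPM depending on the library, where CPM are normalized read counts scaled to a common library size. This limit covers counting error only. Vehicle replicate 3 and NAM/PN replicate 4 stood apart from the other libraries of their condition (chi-square of the counts over its degrees of freedom of 64.4 to 82.2 and 67.4 to 78.6 in their pairs, against 22.8 to 28.3 in the other pairs), and they had the highest and the lowest share of counts on a ribosomal RNA gene, 18.7% and 5.22%. Their part in the results was not tested further than by leaving them out. Mitochondrial genes held 3.73% to 7.54% of counts with vehicle and 2.56% to 4.74% with NAM/PN, higher with NAM/PN only in pool 3. The part of this share in the results was not tested. The cells carried the markers of the myogenic lineage: summed over 8 genes including Pax7, Myod1, Itga7 and Desmin (Des), their level was 3740 to 4490 CPM with vehicle and 2640 to 3200 CPM with NAM/PN. Of these 8 genes, 1 fell, Ncam1, which was between 1000 and 1310 CPM with vehicle and between 451 and 540 CPM with NAM/PN (log2 fold change -1.22, adjusted p = 0.000147 in the edgeR test), and 7 did not pass. Among 7 immune markers, 6 had no count in any library (Ptprc, Adgre1, Csf1r, Itgam, Lyz2 and Cd74), and the summed level was at most 7.58 CPM. The 7 endothelial markers summed to at most 7.25 CPM, with Flt1, Cldn5 and Emcn at 0, the 5 Schwann cell markers to at most 18.4 CPM, with S100b at 0, and the 6 cardiac markers to at most 4.74 CPM, with Myh6, Myl2, Myl7, Nppa and Nkx2-5 at 0. For fibro-adipogenic cells, Pdgfra and Lum had no count, while the summed level of the 8 markers was 341 to 462 CPM with vehicle and 138 to 1200 CPM with NAM/PN. For mural and smooth muscle cells, Myh11 had no count, and the 6 markers summed to 285 to 608 CPM with vehicle and 95.9 to 156 CPM with NAM/PN. Of the fibro-adipogenic and mural markers, Gsn and Col3a1 fell (log2 fold change -2.61 and -1.17), as did Acta2 (-2.38), whereas Col1a1 was at 486 and 1030 CPM in NAM/PN replicates 1 and 2, at 3.96 and 3.27 CPM in NAM/PN replicates 3 and 4 and at 1.74 to 41.3 CPM with vehicle (log2 fold change 4.97, adjusted p = 0.0709 in the edgeR test). The part of these genes in the results was not tested.

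With NAM/PN, 3 of the 9 tested members fell and 0 rose (edgeR's quasi-likelihood test, Benjamini-Hochberg adjusted across the 12060 genes). The 3 were Cacng1 and Stac3, which belong to the voltage sensor complex, and Jph2, a junctophilin. This test called 1.28% of the 12060 genes, 0.995% lower and 0.282% higher with NAM/PN. When the pool entered the fit as a replicate block, these 3 were called as well, against 1.02% of genes called lower and 1.29% called in all. Of the 9 members, Atp2a1, Casq2 and Trdn passed the filter on low counts only through the vehicle libraries, which favors lower levels with NAM/PN among such genes, so that counts and medians that include them are a description. The 3 called members were among the other 6. Without both vehicle replicate 3 and NAM/PN replicate 4, a fit added after seeing the data, Cacng1 and Stac3 were called (adjusted p = 0.00185 and 0.0166, edgeR) and Jph2 was not (adjusted p = 0.0863). Fitted log2 fold changes were below 0 for 8 of the 9 members, and the exception was Atp2a2. Their median was -2.03, and -0.91 over the 6 members that did not depend on the vehicle libraries to pass the filter (5 below 0 and 1 above), against -0.002 for all tested genes. Every NAM/PN library was below every vehicle library for 5 members (Cacng1, Stac3, Trdn, Atp2a1 and Jph2), a pattern found in 4.42% of tested genes, and for 0 members was every NAM/PN library above, as in 2.79% of tested genes. The level was lower in all 4 pools for 8 of the 9 members, against 10.6% of tested genes, and a rise in all 4 pools for 0 members, against 8.49%. Since these are bulk libraries, fewer differentiating cells and less RNA per cell cannot be told apart.

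**Figure D1:**
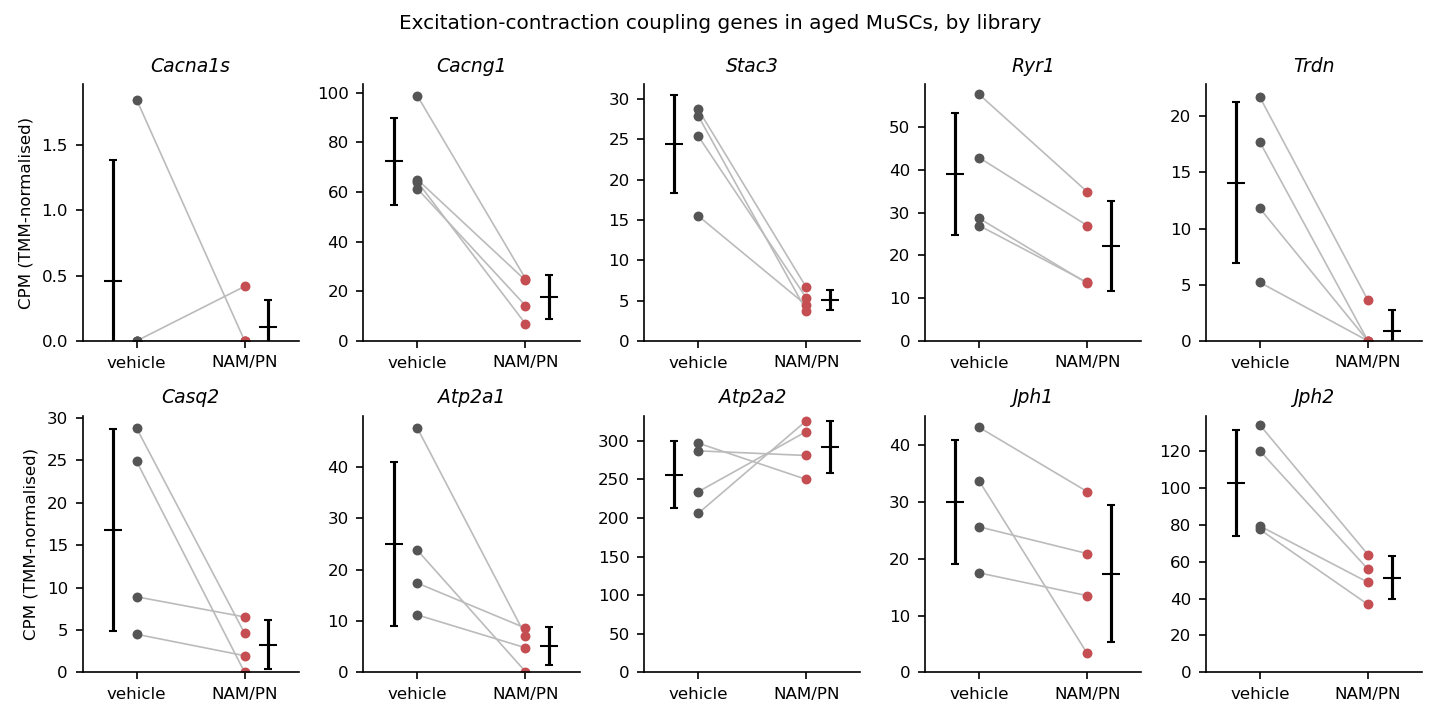
Expression of the 10 genes in each library, in normalized CPM, on linear axes that start at 0. Points are libraries, grey lines join the vehicle and NAM/PN libraries of a pool, and black bars show the mean ± SD (n = 4, cut at 0). Cacng1, Stac3, Trdn, Atp2a1 and Jph2 have no overlap between the conditions, whereas Atp2a2 lies between 206 and 326 CPM in all libraries.

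Promoter sequences of the members were taken from RefSeq on GRCm38.p6, where 5 of the 10 members had a window (Atp2a1, Cacna1s, Casq2, Jph2 and Ryr1). They are shown to describe these genes, and whether members moved together was not tested. The stretches run 5′ to 3′ on the strand of the gene and end at the base before the first annotated start. Capitals mark matches, on either strand, to the E-boxes CAGCTG and CAGGTG of MYOD and MYOGENIN, to the MEF2 site and to the MCAT site CATTCC of TEAD factors. Both E-boxes are cases of the general form CANNTG, found in 72.3% of all windows. Jph2 is given as the member among the 5 whose fall passed the test, Atp2a1 and Casq2 as members with low NAM/PN counts, and Ryr1 as a member with counts in all libraries that did not pass. The log2 fold changes of Jph2 and Ryr1 were close, at -1 and -0.81.
Jph2 (chr2:163397994-163398243, minus strand): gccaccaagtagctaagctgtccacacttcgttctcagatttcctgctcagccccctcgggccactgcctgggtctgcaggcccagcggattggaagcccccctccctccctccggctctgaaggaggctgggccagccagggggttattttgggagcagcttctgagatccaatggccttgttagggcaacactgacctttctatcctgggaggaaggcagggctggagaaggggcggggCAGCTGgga
Atp2a1 (chr7:126463109-126463323, minus strand): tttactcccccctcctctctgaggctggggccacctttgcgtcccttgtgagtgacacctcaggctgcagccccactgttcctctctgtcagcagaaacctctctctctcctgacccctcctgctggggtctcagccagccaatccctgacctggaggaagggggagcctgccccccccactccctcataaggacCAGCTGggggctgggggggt
Casq2 (chr3:102086165-102086414, plus strand): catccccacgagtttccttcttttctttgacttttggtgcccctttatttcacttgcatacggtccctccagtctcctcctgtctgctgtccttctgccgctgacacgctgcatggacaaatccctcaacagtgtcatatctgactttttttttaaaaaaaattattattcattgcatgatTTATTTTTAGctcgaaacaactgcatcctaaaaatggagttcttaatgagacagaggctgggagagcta
Ryr1 (chr7:29125180-29125401, minus strand): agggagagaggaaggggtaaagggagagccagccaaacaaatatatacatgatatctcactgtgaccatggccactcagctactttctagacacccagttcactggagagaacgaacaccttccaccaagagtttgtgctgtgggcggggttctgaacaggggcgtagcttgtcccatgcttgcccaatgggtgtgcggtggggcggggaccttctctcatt

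The E-box CAGCTG was found in the windows of Jph2, Atp2a1 and Cacna1s, 9 bases before the start of Jph2 and 55 bases before the RefSeq start of Atp2a1, and it occurs in 16.3% of the 32851 windows of the RefSeq table, all of the same length. Casq2 held a MEF2 match 69 bases before its start, as do 3.19% of all windows, and no CAGCTG or CAGGTG (20.2% of windows). The window of Cacna1s also held a MCAT match, present in 14.7% of windows. The stretch printed for Ryr1 held none of these motifs and no CANNTG. A match is a description of the sequence only, and no binding was measured here.

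Within the voltage sensor complex, Cacna1s, which encodes the pore-forming subunit of the dihydropyridine receptor, was hardly detected. It had 17 counts in vehicle replicate 4, 3 counts in NAM/PN replicate 2 and no count in the other libraries, so that it was not tested.

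Cacng1 (ENSMUSG00000020722, chromosome 11 of GRCm38 from 107703218 to 107716522) encodes the gamma subunit of this channel. Its expression was 64.1, 65, 61.3 and 98.7 CPM in vehicle replicates 1 to 4 and 6.89, 24.4, 14.2 and 25.1 CPM in the NAM/PN replicates of the same pools. All NAM/PN libraries lay below all vehicle libraries. From 72.3 ± 17.7 CPM with vehicle (SD, n = 4), Cacng1 fell to 17.6 ± 8.74 CPM with NAM/PN (SD, n = 4), a 4.09-fold lower level. The log2 fold change was -2.03 (standard error 0.35) with an adjusted p of 0.00359 in edgeR's quasi-likelihood test. Cacng1 was called under all 19 alternatives that were run, with adjusted p-values between 3.54e-09 and 0.0377.

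Stac3 (ENSMUSG00000040287, chromosome 10 from 127501686 to 127508823) encodes an adaptor protein that skeletal muscle needs to couple the dihydropyridine receptor to the ryanodine receptor. With vehicle it was expressed at 15.5, 27.9, 25.4 and 28.7 CPM, and with NAM/PN at 4.43, 3.76, 5.33 and 6.63 CPM in the same order of pools. The conditions did not overlap, and the NAM/PN libraries were close to each other. Its mean fell from 24.4 ± 6.09 CPM with vehicle to 5.04 ± 1.24 CPM with NAM/PN (SD, n = 4). On the log2 scale Stac3 fell by 2.27 with a standard error of 0.46, and edgeR gave an adjusted p of 0.013. Between 27 and 71 reads were counted on Stac3 in each NAM/PN library. The call was lost without vehicle replicate 2 (adjusted p = 0.0885), without vehicle replicate 4 (adjusted p = 0.091), without any whole pool and with voom weights, while the log2 fold change ranged from -2.44 to -2.08 over all 12 fits without a library or pool. Over the 19 alternatives the adjusted p of Stac3 was between 8.67e-05 and 0.19.

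Of the release machinery, Ryr1 (ENSMUSG00000030592, chromosome 7 from 29003344 to 29125179), the calcium release channel of skeletal muscle, was present in all libraries. Expression was 28.7, 42.9, 57.7 and 27 CPM with vehicle and 13.5, 27, 34.9 and 13.7 CPM with NAM/PN. NAM/PN libraries were lower in each of the 4 pools, although the ranges of the conditions overlapped. Ryr1 averaged 39.1 ± 14.3 CPM in vehicle libraries and 22.3 ± 10.5 CPM in NAM/PN libraries (SD, n = 4). Its log2 fold change of -0.81 (95% interval -1.59 to -0.03, adjusted p = 0.501 in the edgeR test over all genes) did not pass the adjustment.

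Trdn (ENSMUSG00000019787, chromosome 10 from 33080554 to 33476709) encodes triadin, the junctional protein that anchors calsequestrin to the ryanodine receptor. Its counts were 44, 175, 143 and 108 with vehicle and 0, 26, 0 and 0 with NAM/PN. Trdn was thus not detected in 3 of 4 NAM/PN libraries, where a count of 0 allows up to 0.369, 0.457 and 0.28 CPM in replicates 1, 3 and 4. In CPM, vehicle libraries were between 5.21 and 21.7 and NAM/PN replicate 2 was at 3.62. The difference passed the test only in some fits, and Trdn entered the test through its vehicle counts. With a log2 fold change of -3.96 (standard error 1.29), the adjusted p was 0.197 in edgeR's quasi-likelihood test, 0.0418 with the pool as a replicate block and 0.00307 without NAM/PN replicate 2, the library with 26 counts, and between 0.00307 and 0.569 over the 19 alternatives. Leaving out NAM/PN replicate 2 left no Trdn count with NAM/PN, so the outcome of that fit was fixed by the choice of library. With most NAM/PN libraries at 0, the fitted fold depends on the prior count and is no estimate of its size.

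Casq2 (ENSMUSG00000027861, chromosome 3 from 102086415 to 102146514) encodes the calsequestrin of cardiac and slow muscle, which is also the isoform of immature skeletal muscle. Counts were 38, 232, 202 and 82 with vehicle and 16, 33, 0 and 70 with NAM/PN, or 4.5, 28.8, 24.9 and 8.92 CPM against 1.97, 4.6, 0 and 6.54 CPM. Vehicle replicates 2 and 3 were well above vehicle replicates 1 and 4, and vehicle replicate 1 lay within the range of the NAM/PN libraries. For Casq2 edgeR fitted a log2 fold change of -2.34 with a standard error of 0.89 and an adjusted p of 0.338, lower in all 4 pools without passing the adjustment.

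**Figure D2:**
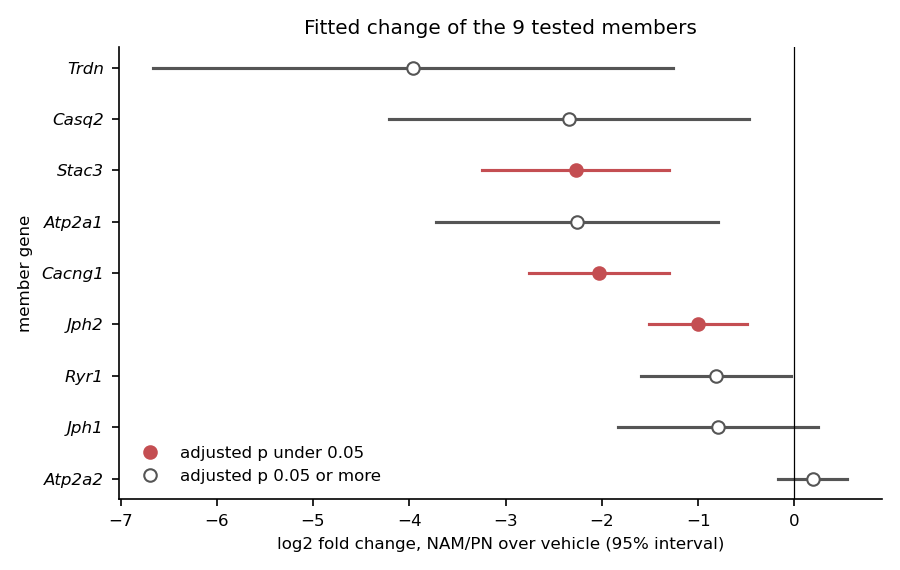
Log2 fold change of each tested member (NAM/PN over vehicle) with its 95% interval from edgeR's quasi-likelihood fit, not adjusted for the number of genes. Filled points passed the adjusted p of 0.05; the intervals of Jph1 and Atp2a2 include 0, and those of Trdn and Casq2 are the widest of the 9.

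Of the calcium pumps, neither passed the test. Atp2a1 (ENSMUSG00000030730, chromosome 7 from 126445858 to 126463108), which encodes SERCA1, the pump of fast muscle fibers, was expressed at 11.2, 17.4, 23.8 and 47.6 CPM with vehicle and 4.8, 8.64, 0.152 and 7.19 CPM with NAM/PN. The conditions did not overlap, and the value of NAM/PN replicate 3 was a single read. Its log2 fold change was -2.26 (standard error 0.7, 95% interval -3.72 to -0.79), and its adjusted p of 0.159 in the edgeR test did not pass. Without the filter on low counts the adjusted p was 0.00454, and over the 19 alternatives it was between 0.00454 and 0.638. Rabep2 overlaps Atp2a1 on the opposite strand and had counts in every library, and reads of overlapping genes cannot be told apart where the counting did not use strand.

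Atp2a2 (ENSMUSG00000029467, chromosome 5 from 122453513 to 122502225), which encodes SERCA2, had 206, 287, 234 and 297 CPM with vehicle and 326, 281, 312 and 250 CPM with NAM/PN. It was higher with NAM/PN in 2 pools and lower in the other 2. Atp2a2 averaged 256 ± 43.5 CPM in vehicle libraries and 292 ± 34.1 CPM in NAM/PN libraries (SD, n = 4), and the log2 fold change of 0.19 had a 95% interval from -0.17 to 0.55 (adjusted p = 0.867 in the edgeR test). That interval leaves out a fall of the size fitted for Atp2a1. The fitted size for Atp2a1 is a description, since that gene entered the test only through its vehicle counts. The count sums the muscle and the ubiquitous splice forms of SERCA2, which were not separated.

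Within a library, the 2 genes of the ratio of Atp2a1 to Atp2a2 share the same scaling, but the prior count enters where counts are low. As a difference in log2 CPM it was -4.16, -4.03, -3.28 and -2.64 with vehicle and -6.02, -4.99, -9.63 and -5.07 with NAM/PN. All NAM/PN libraries were below all vehicle libraries. The mean changed from -3.53 ± 0.71 to -6.43 ± 2.19 (SD, n = 4 each), a difference of -2.9 (exact permutation over libraries, two-sided p = 0.0286, which no split of 4 against 4 can go below, and 0.114 after Benjamini-Hochberg adjustment over the 4 ratios planned). In 4 of 4 pools the ratio was lower. The value of -9.63 in NAM/PN replicate 3 rested on 1 read of Atp2a1 and so on the prior count. With a prior count of 0.5 the difference was -3.14. Since Atp2a1 entered the test only through its vehicle counts, the separation and the p-value of this ratio are a description. Without any 1 of the vehicle libraries the difference was -3.11 to -2.6 (unadjusted exact permutation p = 0.0857 in each case, where 0.0286 is the smallest possible). Leaving out NAM/PN replicate 3 moved the difference to -1.83 (exact p = 0.0286), and leaving out its whole pool moved it to -1.75 (exact p = 0.1, the smallest that 3 libraries against 3 allow). An exact sign-flip test on the 4 differences within pools, as a replicate block, gave p = 0.125, the smallest it can give.

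**Figure D3:**
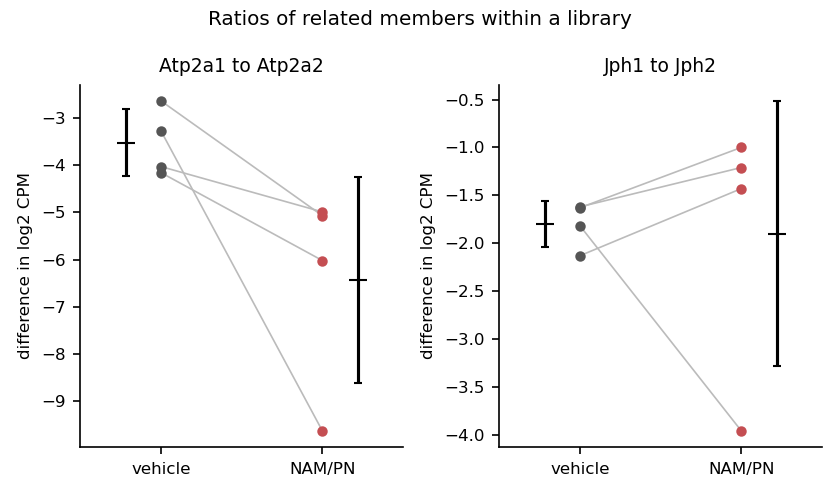
Ratio of Atp2a1 to Atp2a2 and of Jph1 to Jph2 in each library, as the difference in log2 CPM, with lines joining libraries of a pool and bars for the mean ± SD (n = 4). The SERCA ratio is below -4.9 in all NAM/PN libraries and above -4.2 in all vehicle libraries, and the junctophilin ratio of NAM/PN replicate 4 (-3.96) lies apart from the other NAM/PN libraries.

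Junctophilins tether the plasma membrane to the reticulum. Jph2 (ENSMUSG00000017817, chromosome 2 from 163336242 to 163397993), the form shared by heart and skeletal muscle, was expressed at 77.4, 79.3, 134 and 120 CPM with vehicle and 36.8, 48.8, 63.8 and 55.9 CPM with NAM/PN. The conditions did not overlap. The mean of Jph2 fell from 103 ± 28.7 CPM with vehicle to 51.3 ± 11.5 CPM with NAM/PN (SD, n = 4). Its log2 fold change was -1 with a standard error of 0.24, and edgeR gave an adjusted p of 0.0461. This call lies next to the threshold: it was kept without vehicle replicate 1 (adjusted p = 0.0469) and lost without any other library or any whole pool, where the adjusted p ranged up to 0.213. In these fits the log2 fold change ranged from -1.12 to -0.85. Over the 19 alternatives the adjusted p of Jph2 was between 0.00169 and 0.213.

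Jph1 (ENSMUSG00000042686, chromosome 1 from 16964560 to 17097889), the form particular to skeletal muscle, had 17.5, 25.6, 43.1 and 33.7 CPM with vehicle and 13.5, 20.9, 31.8 and 3.36 CPM with NAM/PN. It was lower with NAM/PN in each pool, by a small margin in pools 1 to 3, and the conditions overlapped. NAM/PN replicate 4, with 36 counts, was far below the others. The log2 fold change was -0.79 (95% interval -1.83 to 0.25, adjusted p = 0.744 in the edgeR test), and it was closest to 0, at -0.22, without both vehicle replicate 3 and NAM/PN replicate 4.

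The ratio of Jph1 to Jph2 was -1.8 ± 0.24 with vehicle and -1.9 ± 1.39 with NAM/PN (difference in log2 CPM, SD, n = 4 each; exact permutation p = 1). Without NAM/PN replicate 4 it was higher with NAM/PN by 0.59 (exact permutation p = 0.0286), and without the whole of pool 4 by 0.58 (exact permutation p = 0.1, the smallest possible), so that the direction was set by 1 library. The other 2 ratios planned, of Casq1 to Casq2 and of Ryr1 to Ryr3, could not be evaluated. Casq1, the calsequestrin of fast fibers, had 22 and 4 counts in vehicle replicates 1 and 2 and 0 elsewhere, and Ryr3 had 1 count in a single vehicle library.

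The difference between NAM/PN and vehicle varied across the pools of mice to a different extent in each member. On the log2 CPM scale, the difference within pools was between -1.07 and -0.66 for Ryr1, between -1.1 and -0.7 for Jph2 and between -2.81 and -1.75 for Stac3. In Cacng1 it was largest in pool 1 (-3.17) and smallest in pool 2 (-1.41). Atp2a1 and Casq2 had their largest differences in pool 3, at -5.94 and -6.71, where the NAM/PN library held 1 and 0 counts. The largest difference of Jph1 was -3.24 in pool 4, against -0.43 to -0.29 in the other pools.

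**Figure D4:**
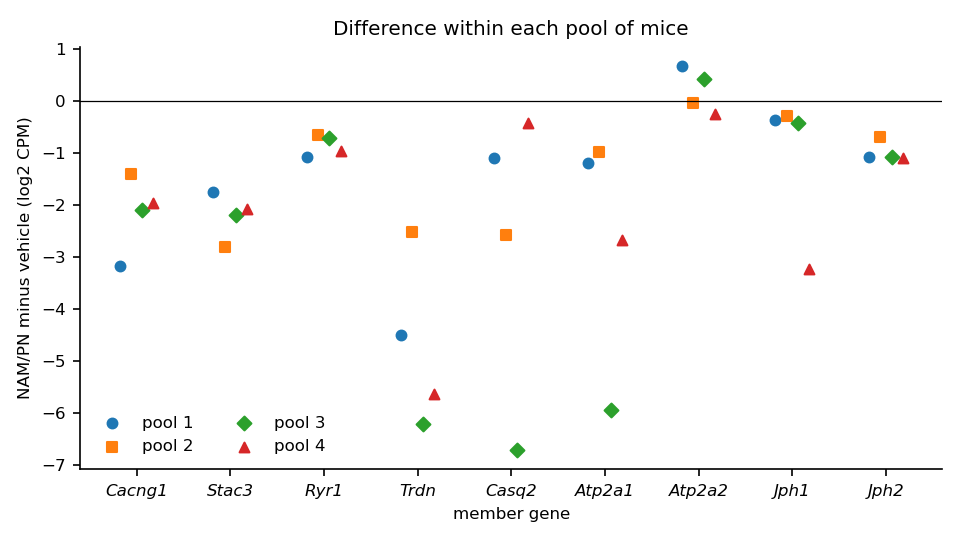
Difference between the NAM/PN and the vehicle library of each pool in log2 CPM (prior count 2) for the 9 tested members, with a symbol for each pool. Ryr1, Jph2 and Stac3 spread over about 1 log2 unit or less, whereas Casq2, Atp2a1, Jph1 and Trdn have pools several units below the others.

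Levels were also set against Myog, the transcription factor that starts terminal differentiation, in the same library. Myog was at 680, 1040, 566 and 1430 CPM with vehicle and 108, 237, 173 and 277 CPM with NAM/PN (log2 fold change -2.22, standard error 0.29, adjusted p = 0.000232 in the edgeR test). Relative to Myog, Stac3 had the same mean in both conditions (-5.18 on the log2 scale) and Cacng1 nearly so (-3.61 with vehicle and -3.56 with NAM/PN). Atp2a1 and Casq2 differed by -0.48 and -0.49, with low counts behind these values. In NAM/PN replicate 3, with 1 and 0 counts, they were at -8.79 and -9.49. The other NAM/PN libraries were at -5.22 to -4.42 for Atp2a1 and at -5.62 to -5.36 for Casq2. The vehicle libraries were at -5.89 to -4.56 and at -7.28 to -4.49. Ryr1, Jph1 and Jph2 were higher relative to Myog, by 1.36, 1.13 and 1.23, with overlapping conditions, and Atp2a2 by 2.42 without overlap. Trdn was lower relative to Myog by 2.5, again with zero counts behind the value. These are values per library, with no test of the difference. Of 12 markers of differentiation, 9 fell and 0 rose, against 0.995% of all tested genes called lower (summed level 1840 to 3690 CPM with vehicle and 407 to 1000 CPM with NAM/PN).

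The rest of the pathway was described by 5 lists of calcium-handling genes, with 69 of 74 genes matched by symbol and 48 tested. Of these 48 genes, 4 fell and 0 rose (8.33%, against 1.28% of all tested genes), and the median log2 fold change was -0.2. Here too, 7 of the 48 passed the filter only through the vehicle libraries, and of the other 41 genes 3 fell, with a median of -0.09. Among 12 tested genes of calcium release and luminal binding, 3 fell (Hrc, Tmem38a and Jsrp1) and 9 did not pass, with a list median of -0.13. Of the 3, Hrc entered the test only through its vehicle counts, which leaves 2 of the 11 genes that did not. The count was between 0 and 3 in the reduced fits, each without 1 library or pool. Hrc, a histidine-rich luminal calcium-binding protein that interacts with triadin, had 73, 155, 55 and 136 counts with vehicle and 0, 4, 8 and 1 counts with NAM/PN, an adjusted p of 0.0432 in the edgeR test, 0.0835 with the replicate block, and 5.43e-05 to 0.419 over the 19 alternatives. Of 12 fits that left out a library or a pool, the call was kept in 3, those without vehicle replicate 3, without NAM/PN replicate 3 or without pool 3. Its log2 fold change was -4.74, and -5.81 without NAM/PN replicate 3 or -6.02 without pool 3, with counts near 0 behind these values. Tmem38a, which encodes the counter-ion channel TRIC-A, fell from 20.8, 36, 32.2 and 36.3 CPM to 3.32, 3.9, 2.28 and 13.6 CPM (log2 fold change -2.42, adjusted p = 0.0201 in the same test, kept in 4 of 12 such fits, those without vehicle replicate 1, vehicle replicate 3, NAM/PN replicate 4 or pool 4). Without NAM/PN replicate 4 the log2 fold change of Tmem38a was -3.3.

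Jsrp1, which encodes a junctional protein that binds the dihydropyridine receptor and calsequestrin, fell from 78.5, 141, 116 and 139 CPM to 65, 38.3, 55.7 and 61.6 CPM (log2 fold change -1.1, adjusted p = 0.0182 in the edgeR test, kept in 5 of 12 such fits, and lost without vehicle replicates 2 or 4, NAM/PN replicates 2 or 3, or pools 2, 3 or 4). The genes of this list that did not pass had log2 fold changes from -1.55 for Srl (sarcalumenin, adjusted p = 0.0648 in the edgeR test) to 0.35 for Tmem38b. In the list of triad and tubule structure, 1 of 9 tested genes fell. This was Ank1, whose short muscle isoform links the reticulum to the sarcomere, with 250, 290, 313 and 294 CPM with vehicle and 103, 115, 94.6 and 134 CPM with NAM/PN (log2 fold change -1.36, standard error 0.18, adjusted p = 0.000232 in the edgeR test, called under all 19 alternatives). The fall of Ank1 was even, and its conditions were far apart.

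No gene passed in the other 3 lists (edgeR's quasi-likelihood test). Of 5 tested tubule channel genes, the smallest p-value was in Cacnb1, the beta subunit of the dihydropyridine receptor (log2 fold change -1.25, adjusted p = 0.348 in the edgeR test), and of 3 tested genes of pump regulation in Tmem64 (log2 fold change -0.31, adjusted p = 0.815). The peptides sarcolipin (Sln) and phospholamban (Pln), which inhibit SERCA, had no count in any library. Myoregulin (Mrln), of the same list of pump regulators, had 16, 35, 30 and 6 counts with vehicle and 8, 25, 23 and 0 with NAM/PN. Mrln did not pass (log2 fold change -0.41, adjusted p = 0.986 in the edgeR test). Among 19 genes of store-operated entry and other calcium routes, Atp2b4, a calcium pump of the plasma membrane, had the smallest p-value (log2 fold change -1.93, adjusted p = 0.0705), and the list median was -0.07.

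**Figure D5:**
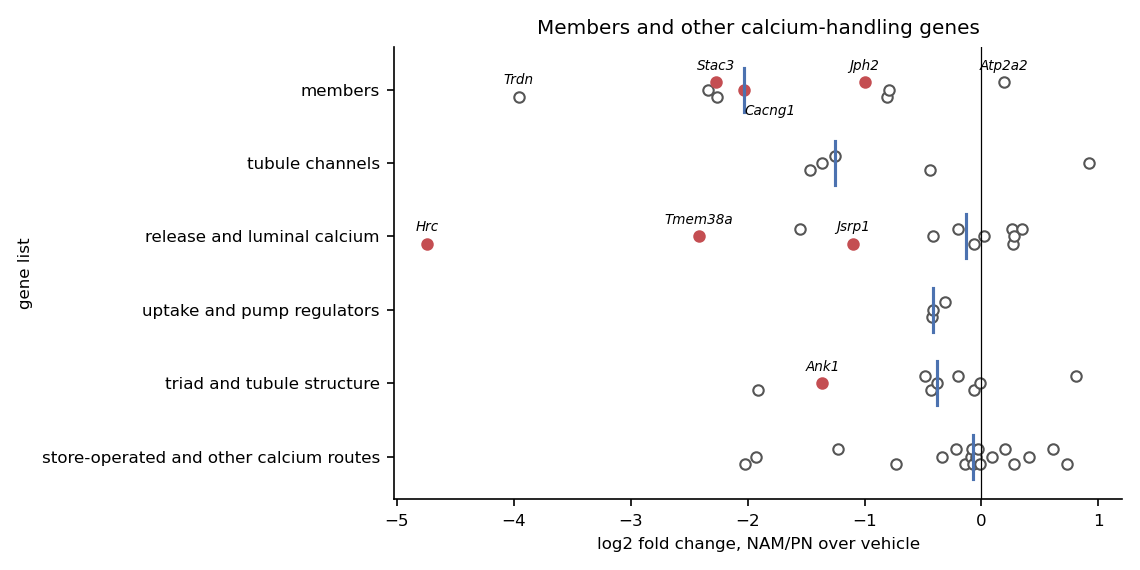
Log2 fold change (NAM/PN over vehicle) of every tested gene in the members and in 5 lists of calcium-handling genes, with filled points for an adjusted p under 0.05 and a blue line at each list's median. Filled points, all below 0, occur among the members, the release and luminal list and the triad list, while the 19 genes of store-operated and other routes have a median of -0.07.

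Of genes outside all lists, those whose log2 CPM followed the mean of the members' standardised levels most closely over the 8 libraries included Lrrn1, Neurl1a, Shisa4 and Palld, with Pearson's r of 0.972, 0.97, 0.96 and 0.96. These libraries share their treatment and pools, so the values describe likeness only. A test of treatment on genes picked this way is a description as well. Lrrn1, a leucine-rich repeat membrane protein, had 29.5, 85.1, 72.7 and 55.2 CPM with vehicle and 15.6, 20.9, 16.8 and 11.3 CPM with NAM/PN. Palld, which encodes the actin-binding protein palladin, was between 178 and 254 CPM with vehicle and between 64.8 and 133 CPM with NAM/PN (adjusted p = 0.00549 in the edgeR test).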

How the data were processed

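RNA was sequenced from aged MuSCs cultured with vehicle or NAM/PN, with QuantSeq 3′ libraries, which read the end of transcripts, so that counts were not divided by length. Raw counts per gene were deposited, made by the authors by alignment to GRCm38 with RNASTAR and htseq-count (HTSeq 2.16.2 in the submitters' processing notes). The annotation release, the strand setting and the handling of multi-mapping reads are not given in the sources used here. Symbols and positions came from GENCODE M21 on GRCm38 (55141 of 55487 identifiers matched).

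Genes were filtered with filterByExpr (minimum count 10, total 15), scaled with TMM factors and compared by glmQLFTest of edgeR 4.0.16 (R 4.3.3, limma 3.58.1, DESeq2 1.42.0, Python 3.11.15, matplotlib 3.10.9), with Benjamini-Hochberg adjustment over 12060 genes and a threshold of 0.05. Log2 CPM used a prior count of 2. Standard errors and 95% intervals were derived from the F statistic of this fit and are approximate. Pool numbers pair libraries of the same mice, while their deviations from the condition means correlated between -0.0332 and 0.0313. All pairs of libraries within a condition differed beyond sampling noise (chi-square over its degrees of freedom 22.8 to 82.2). In counts simulated for this comparison over 12060 genes, 54 of 100 genes changed 4-fold and 27 of 100 changed 2-fold were recovered, and 7 unchanged genes were called.

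Named genes are all members, genes of the lists that passed the test or else the smallest p-value of a list, the genes of the ratios, Myog, and the 5 genes most like the members, of which 1 is not reported here. Rabep2, Ncam1, Srl, Tmem38b, Col1a1, Col3a1, Gsn, Acta2, Sln, Pln and Mrln were named after their values were seen. Members and lists were chosen with earlier results of these data known. Alternatives were a replicate block, DESeq2, RLE normalization, no filter, a robust fit, thinned counts, voom with quality weights, a threshold of 0.10, a prior count of 0.5 for the ratios, and fits without each library or pool in turn. A fit without both libraries that stood apart was added after seeing the data. The ratio tests were exact permutations over libraries.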

Additional observations from a re-analysis of the deposited data

Results flagged for a closer look

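Among 32 groups of 4 libraries (members, Myog, called pathway genes, library totals and the members' share of counts), 3 had a library whose gap to its nearest neighbour, as a share of the range, was above Dixon's 95% limit for 4 samples. Chance flags about 1 in 20 groups, here 1.6. Cacng1 was at 98.7 CPM in vehicle replicate 4, against 61.3 to 65 CPM in the other vehicle libraries (ratio 0.9). Trdn was at 3.62 CPM in NAM/PN replicate 2 and at 0 in the other NAM/PN libraries (ratio 1). With the others at 0, any count in that library gives a ratio of 1, so this flag cannot be set against chance. Tmem38a reached 13.6 CPM in NAM/PN replicate 4 and 2.28 to 3.9 CPM in the others (ratio 0.858).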

How the results depend on the processing

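For 14 named genes under 19 alternatives each (266 values), 218 kept their direction and their side of the threshold, 44 lost significance, 4 gained it and 0 changed sign. Of the 4 gains, 3 were in Trdn and 1 in Atp2a1, which both entered the test through their vehicle counts. Of the members, 3 were called, 4 with the replicate block (Trdn in addition, which entered the test through its vehicle counts), 3 with DESeq2, RLE normalization, a robust fit, thinned counts or a threshold of 0.10, 2 with voom and 5 without a filter on low counts (Atp2a1 and Trdn in addition), and 1 to 3 in fits without a library or pool. It was 1, Cacng1, without vehicle replicate 2, without vehicle replicate 4 and without any of the 4 pools, which leaves fewer samples. Over all genes, 154 were called, 244 at a threshold of 0.10, 388 with DESeq2, 366 without a filter, 232 with voom, and 42 to 177 in fits without a library or pool. In the release list the count was 3 and between 0 and 3 with libraries or pools left out. In the triad list it was 1, 2 with voom, and between 1 and 2 with libraries or pools left out. The list of store-operated and other routes had 0 called genes, 1 at a threshold of 0.10, with DESeq2 or without a filter, and between 0 and 1 with libraries or pools left out. Of the tubule channels, 1 was called without NAM/PN replicate 3 and 0 under every other setting. The cause of these changes was not tested. The Atp2a1 to Atp2a2 difference lay between -3.56 and -1.75 with libraries or pools left out and was -2.9 under the replicate block (exact sign-flip p = 0.125), a design that cannot give a lower p. The Jph1 to Jph2 difference lay between -0.4 and 0.59, with the positive values of 0.59 and 0.58 without NAM/PN replicate 4 and without pool 4. Among the named genes, the replicate block changed the calls of Trdn, Hrc and Shisa4 (adjusted p of 0.0461 without and 0.106 with the block for Shisa4, edgeR) and no other call. Without both vehicle replicate 3 and NAM/PN replicate 4, a fit chosen after seeing the data, 2 members and 236 of all genes were called, with 2 in the triad list and 1 in that of store-operated and other routes, which was higher with NAM/PN whereas the single calls in this list under other settings were lower, and the ratio differences were -3.26 for Atp2a1 to Atp2a2 and 0.65 for Jph1 to Jph2 (exact p = 0.1 each, the smallest possible). Thinning to the smallest library left Casq2 at an adjusted p of 0.334 and Trdn at 0.163 (edgeR), and Cacna1s had too few counts to test.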
